A study of Gasterosteus aculeatus with 79 samples.

Results

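bdnf (ENSGACG00000015502) and adcyap1a (ENSGACG00000004163) are 2 of the 22456 genes counted in the brains of male threespine stickleback (Gasterosteus aculeatus), and they were taken by their identifiers, with earlier results of these data known. The males were wild-caught adults from a single freshwater population, kept in the laboratory on 16 h of light and 8 h of dark. RNA was sequenced from 2 dissected forebrain regions, diencephalon and telencephalon, to follow gene expression as males become fathers. Nest males had built a nest without mating, and eggs males were taken on day 4 after fertilization. Early, mid and late males were caring fathers on day 5, the day of hatching, taken as hatching began, partway through it and once it was complete. Nest, eggs and early males were sampled at 9 a.m., mid males at 1 p.m. and late males at 5 p.m. Control males were reproductively mature males with no nest, taken at 9 a.m., 1 p.m. and 5 p.m. Each of the 8 groups held 5 males and each male gave 1 library per region, with 1 exception. The series holds no diencephalon library of 1 control male of 1 p.m., which left 79 libraries of 40 males. The study states that 1 sample of low RNA quality was excluded and not sequenced. Nest, eggs and early males were all set against the same 9 a.m. controls, so those 3 comparisons share their control values. In these dissected tissues, fewer cells expressing a gene and less RNA per cell cannot be told apart.

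bdnf encodes brain-derived neurotrophic factor, a secreted growth factor of the neurotrophin family that acts through the receptor tyrosine kinase TrkB. In mammals it promotes the survival of neurons and the strengthening of synapses, and its transcription follows neuronal activity through calcium and CREB. adcyap1a encodes pituitary adenylate cyclase-activating polypeptide (PACAP), a neuropeptide of the secretin family that raises cyclic AMP through the receptor PAC1, and in mammals it acts in the hypothalamus and in stress responses. Both genes can thus feed into cyclic AMP and CREB signalling, and both are made by neurons of the forebrain.

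Both genes were well covered. bdnf had 327 to 1245 reads per diencephalon library and 515 to 1788 reads per telencephalon library, and adcyap1a had 776 to 2041 and 845 to 2373 reads. Counting error alone was therefore at most 5.53% of a value, below the coefficient of variation between males in each group except early diencephala for bdnf (3.84%). Levels are given as CPM, reads scaled to a common total of gene reads, after TMM scaling, which corrects for differences in library composition. TMM scaling was done within each region, so these levels can be compared between libraries of the same region. The levels of the 2 regions of a male rest on separate scalings. Levels cannot be compared between the 2 genes, because gene length was not used.

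Over the series, libraries held 15839679 to 37371744 reads in genes. Summed markers of the pituitary, a gland that lies against the diencephalon, came to 0.825 to 400.6 CPM in telencephala of experimental males, but passed 1000 CPM in 3 telencephalon libraries of control males (males 39 and 41 at 9 a.m. and male 96 at 1 p.m.). The share of aligned reads that fell outside genes (off-gene reads) was 49.4% ± 1.5 in late diencephala and 44.5% ± 1.0 in those of the 5 p.m. controls (SD, n = 5 each), the widest gap between a stage and its control. All control libraries and both libraries of late male 65 are labelled as run on multiple lanes and all other experimental libraries as run on 1 lane, so that lane and group cannot be told apart.

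In the diencephalon, bdnf was higher in nest males than in control males of the same hour, and it rose 1.46-fold as the mean of the 5 stages. The morning stages carried the larger values: 13 of the 15 nest, eggs and early males lay above the highest 9 a.m. control. In nest males bdnf was at 49.5, 24.1, 38.7, 53.2 and 42.9 CPM (males 33, 54, 70, 78 and 82), against 23.5, 21.2, 28.7, 18.9 and 19.3 CPM in 9 a.m. control males (males 7, 39, 41, 69 and 74). The 4 other nest males were above all 5 controls, and male 54 lay among them. The change was 0.90 ± 0.15 on the log2 scale (SE), or 1.87-fold, with an adjusted p of 0.00391 by edgeR's quasi-likelihood test with Benjamini-Hochberg adjustment over 18609 genes. In that comparison 0.043% of genes passed the same threshold of 0.01 as higher in nest males, and bdnf ranked 4 by p. Its call was lost with the share of off-gene reads in the model (0.80, adjusted p = 0.0338) and when only the 2 groups entered the fit (0.91, adjusted p = 0.116). It was also lost without nest males 33 or 78 or without control males 39, 69 or 74, where the change ran between 0.80 and 0.88 and the adjusted p between 0.0131 and 0.0223. Over all genes, 10 were called with all males and groups and no covariate. The fit with off-gene reads called 2, that of 2 groups 1, and those without 1 of these males 2 to 5.

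Eggs and early males had similar diencephalic levels of bdnf. In eggs males the values were 32.5, 42.0, 36.3, 27.5 and 41.9 CPM (males 60, 71, 77, 87 and 88), and only male 87 fell within the range of the 9 a.m. controls. In early males they were 36.6, 40.2, 38.4, 40.3 and 38.9 CPM (males 13, 16, 29, 58 and 64), all above the highest 9 a.m. control at 28.7 CPM. The early fathers were the most alike of any group, with a coefficient of variation of 3.84% against 17.9% in their controls. Neither change passed the threshold: eggs males differed from controls by 0.69 ± 0.15 (log2, adjusted p = 0.0362) and early males by 0.80 ± 0.15 (adjusted p = 0.0734) in edgeR's quasi-likelihood test. In the eggs comparison 0.0215% of genes passed as higher. In the early comparison 0.0% did, 1170 genes had an unadjusted p under 0.05, and bdnf had the smallest p of all 18609 genes (6.21e-06). DESeq2 called 4 genes in the early comparison and 50 in the eggs comparison, with bdnf among them in both (adjusted p = 0.00113 and 0.00366), and the likelihood ratio test called 2 and 26 genes. Early groups that did not overlap, with all fathers above all controls, were found for 0.865% of genes, and both bdnf and adcyap1a were among these.

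**Figure D1:**
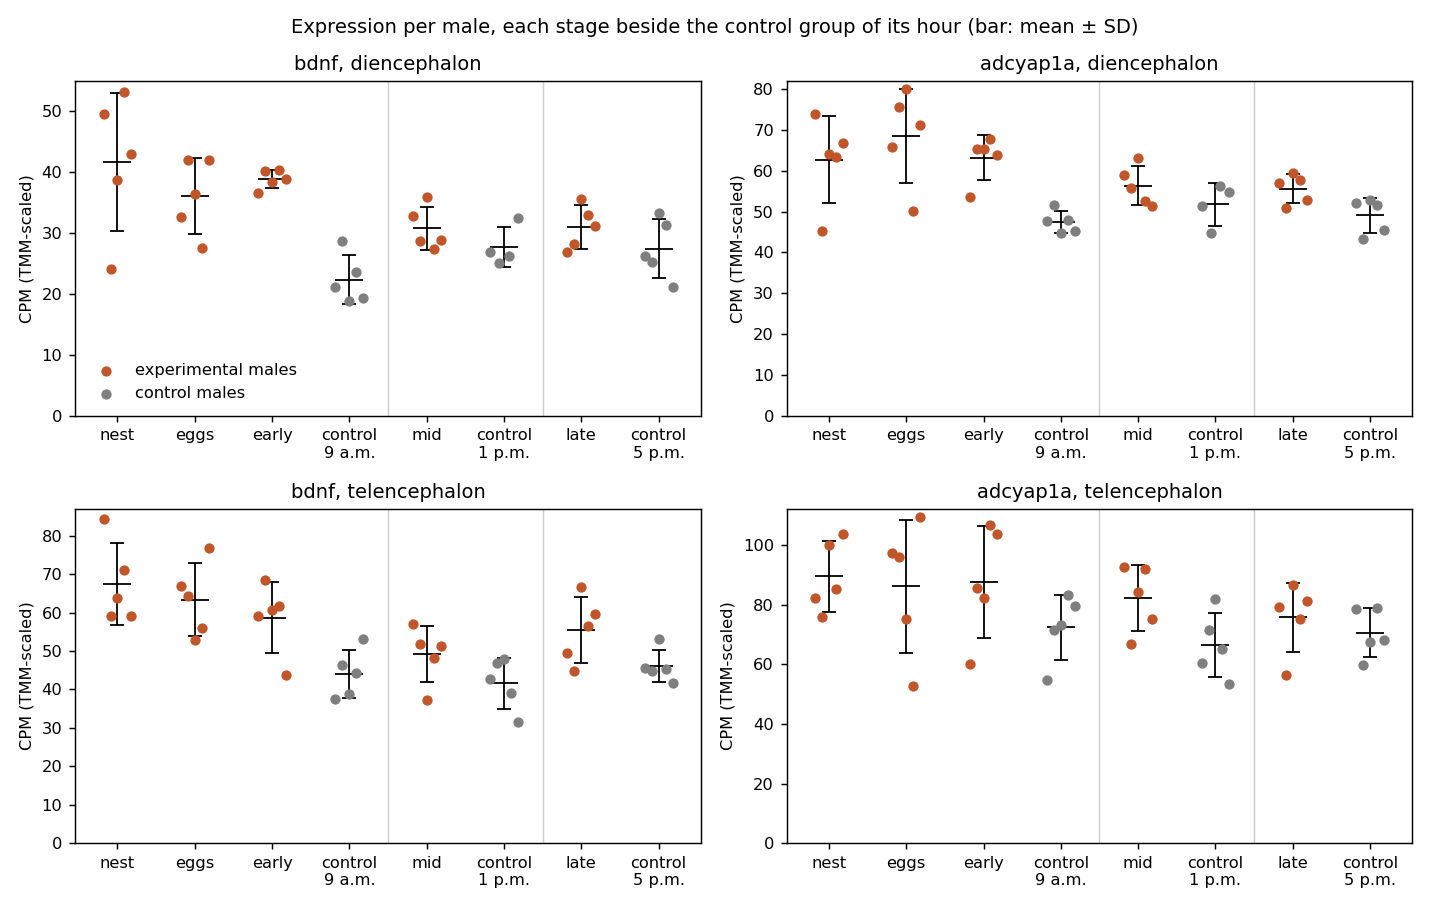
Level of bdnf (left) and adcyap1a (right) in each diencephalon (top) and telencephalon (bottom) library, in TMM-scaled CPM on axes from 0. Each point is 1 male, experimental males are orange and control males grey, each stage stands left of the control group of its hour, and bars give the mean ± SD. The 5 early diencephala lie at 36.6 to 40.3 CPM for bdnf, above all 5 of the 9 a.m. controls at 18.9 to 28.7 CPM.

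After midday the fathers and their controls were close. Mid males had 32.8, 28.8, 35.9, 27.3 and 28.9 CPM of bdnf in the diencephalon (males 73, 80, 81, 86 and 92), against 26.9, 25.1, 26.2 and 32.4 CPM in the 4 control males of 1 p.m. Late males had 26.8, 28.3, 35.7, 33.0 and 31.2 CPM (males 10, 15, 32, 47 and 65), against 26.2, 25.3, 33.3, 31.3 and 21.2 CPM in 5 p.m. control males. The groups overlapped at both hours. Late male 65, whose library ran on multiple lanes like the controls, was at 31.2 CPM. That value lay within the range of the other late males (26.8 to 35.7 CPM) and within that of the 5 p.m. controls (21.2 to 33.3 CPM), so it cannot tell lane and stage apart. The changes were 0.15 ± 0.16 (adjusted p = 0.724) at mid hatching and 0.18 ± 0.15 (adjusted p = 0.470) at late hatching by edgeR's quasi-likelihood test. At mid hatching 0.0% of genes passed as higher, with 2581 genes at an unadjusted p under 0.05, 3 genes called by DESeq2 and 0 by the likelihood ratio test, and at late hatching 1.11% passed as higher.

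Taken over the 5 stages, bdnf rose in the diencephalon by 0.54 ± 0.09 on the log2 scale (adjusted p = 0.000563, edgeR's quasi-likelihood test), where 2.1% of genes passed as higher. The call held without each of the 39 males in turn, with changes of 0.51 to 0.62. It did not hold with the share of off-gene reads in the model, which gave 0.43 with an adjusted p of 0.171 (unadjusted p = 0.000300). In that model 0 of 18609 genes passed in either direction, against 901 in the model without that share. Across the 39 diencephalon libraries bdnf and that share had a Pearson r of 0.50, or 0.30 once group means were taken out.

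The mean change at 9 a.m. exceeded that of the afternoon stages by 0.63 ± 0.17 on the log2 scale for diencephalic bdnf (unadjusted p = 0.000535). This difference did not pass over all genes (adjusted p = 0.218, edgeR's quasi-likelihood test), and no gene passed, with 1974 genes at an unadjusted p under 0.05, 5 called by DESeq2 and 3 by the likelihood ratio test. The comparison was chosen with earlier results of these data known. Nest, eggs and early males were taken only at 9 a.m., and mid and late males only at 1 p.m. and 5 p.m. Hour of sampling and stage therefore cannot be told apart in it. The controls of those hours also differed in mean. bdnf was 22.3 ± 4.0 CPM at 9 a.m., 27.6 ± 3.3 CPM at 1 p.m. and 27.4 ± 4.8 CPM at 5 p.m. in control diencephala (SD, n = 5, 4 and 5). The 1 p.m. controls differed from those of 9 a.m. by 0.31 ± 0.16 (log2, adjusted p = 0.823) and the 5 p.m. controls by 0.30 ± 0.15 (adjusted p = 0.389), so that neither difference between control hours was called by edgeR's quasi-likelihood test. The 9 a.m. control mean was the lowest of the 8 groups, and the gap from the 5 p.m. controls down to it, 5.13 CPM, was the only one between neighbours in the order that exceeded their pooled SD, of 4.44 CPM. From the top that order was nest, early, eggs, late, mid, and the 1 p.m., 5 p.m. and 9 a.m. controls, and the ranges of all neighbouring groups overlapped.

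Between successive stages no difference in diencephalic bdnf passed the threshold in edgeR's quasi-likelihood test. Eggs males differed from nest males by -0.21 ± 0.15 on the log2 scale (adjusted p = 0.975) and early from eggs males by 0.11 ± 0.15 (adjusted p = 0.870). From early to mid hatching, the change against controls of the same hour was lower by 0.65 ± 0.22 (unadjusted p = 0.00534, adjusted p = 0.648), which left mid and late hatching 0.02 ± 0.22 apart (adjusted p = 0.988).

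In the telencephalon bdnf was higher in every stage mean than in every control mean, and it rose 1.33-fold as the mean of the 5 stages. In nest males it was at 84.3, 59.0, 63.7, 71.0 and 59.2 CPM, against 44.4, 37.6, 46.5, 38.8 and 53.0 CPM in 9 a.m. control males. The lowest nest male thus lay above the highest control, which 2.75% of genes also showed. In eggs males it was at 67.0, 64.2, 52.8, 55.9 and 76.6 CPM, so that 4 of 5 exceeded all 9 a.m. controls and male 77 fell just below the highest of them. Early males had 59.0, 68.6, 60.6, 61.6 and 43.8 CPM, and male 64, at 43.8 CPM, was among the controls although its diencephalon was not.

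At the later hours the telencephalic ranges overlapped more. bdnf was at 57.1, 51.8, 37.3, 48.2 and 51.4 CPM in mid males, against 42.7, 46.9, 48.0, 39.1 and 31.6 CPM in 1 p.m. control males (males 12, 72, 91, 94 and 96). It was at 49.5, 44.7, 66.5, 56.6 and 59.5 CPM in late males, against 45.5, 44.7, 53.1, 45.3 and 41.6 CPM in 5 p.m. control males. Of the late males 3 lay above all their controls, and the lowest library of all was that of control male 96, one of the 3 with pituitary markers.

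The telencephalic changes of bdnf were 0.61 ± 0.13 in nest males (log2, adjusted p = 0.0458), 0.52 ± 0.13 in eggs males (adjusted p = 0.112) and 0.41 ± 0.13 in early males (adjusted p = 0.206) by edgeR's quasi-likelihood test. They were 0.24 ± 0.13 at mid hatching (adjusted p = 0.910) and 0.27 ± 0.13 at late hatching (adjusted p = 0.362). None passed the threshold of 0.01, a threshold that 0.0109% of genes passed as higher in nest males and 0.0% in each of the other 4 stages. Unadjusted p was under 0.05 for 2097 genes in the eggs comparison and for 2042, 1024 and 2577 genes at early, mid and late hatching, where DESeq2 called 35, 35, 15 and 11 genes and the likelihood ratio test 14, 3, 2 and 2. Over the 5 stages bdnf rose by 0.41 ± 0.08 (adjusted p = 0.00318), where 0.245% of genes passed as higher. The call was lost without control male 39 (0.38, adjusted p = 0.0141) and without the 3 control libraries with pituitary markers (0.37, adjusted p = 0.0278). It was also lost without the 3 control libraries highest in photoreceptor markers (males 7, 12 and 74), where the change was 0.47 with an adjusted p of 0.0114. Both sets were chosen after the data were seen. The fits without male 39, without the pituitary set and without the photoreceptor set called 47, 62 and 22 genes, against 112 with all libraries. With the share of off-gene reads in the model the mean change of bdnf stood at 0.39 with an adjusted p of 0.00382, and 95 genes were called.

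Control hours did not separate telencephalic bdnf. The control means were 44.1 ± 6.2 CPM at 9 a.m., 41.7 ± 6.6 CPM at 1 p.m. and 46.1 ± 4.2 CPM at 5 p.m. (SD, n = 5 each). Differences between hours ran from -0.08 to 0.14 on the log2 scale, with adjusted p of 0.803 to 0.998 in edgeR's quasi-likelihood test. From the top the stage means were in the order nest, eggs, early, late and mid, followed by the 5 p.m., 9 a.m. and 1 p.m. controls, and no gap between neighbours exceeded their pooled SD. The morning stages exceeded the afternoon stages in their change by 0.26 ± 0.14 for telencephalic bdnf (unadjusted p = 0.0745, adjusted p = 0.496, edgeR's quasi-likelihood test).

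In the diencephalon adcyap1a rose 1.26-fold as the mean of the 5 stages, and its largest mean was in eggs males. Nest males had 74.0, 45.2, 64.1, 63.3 and 66.7 CPM, against 47.8, 47.7, 51.5, 44.8 and 45.1 CPM in 9 a.m. control males. Eggs males had 65.7, 75.7, 80.0, 50.0 and 71.2 CPM, and early males 53.7, 65.4, 65.2, 67.9 and 63.8 CPM, beside the same controls. Of these 15 males 13 exceeded the highest 9 a.m. control, and the 2 that did not, nest male 54 and eggs male 87, were the 2 that fell within the control range for bdnf. Their diencephalon libraries had summed pituitary markers of 1393 and 3753 CPM, the highest of the nest and eggs groups, though other diencephala reached 4889 CPM. Early males 16, 58 and 64 had sums of 2574, 2414 and 3449 CPM and lay above the highest 9 a.m. control for both genes. Early male 13, the lowest of its group for both genes, had a sum of 18.5 CPM. The part of such tissue in the low values of males 54 and 87 was not tested.

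The diencephalic change of adcyap1a was 0.40 ± 0.10 in nest males (log2, adjusted p = 0.0753), 0.53 ± 0.11 in eggs males (adjusted p = 0.0194) and 0.41 ± 0.10 in early males (adjusted p = 0.452) by edgeR's quasi-likelihood test. None passed the threshold with all males in the fit. Without nest male 54 the nest change was 0.50 and passed (adjusted p = 0.00532), and without eggs male 87 the eggs change was 0.63 and passed (adjusted p = 0.00343). The fit without male 54 called 42 genes in the nest comparison, against 10 with all males. That without male 87 called 4 in the eggs comparison, against 6.

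Mid males had 58.9, 55.8, 63.0, 52.7 and 51.4 CPM of adcyap1a in the diencephalon, against 51.3, 44.6, 56.2 and 54.9 CPM in 1 p.m. control males. Late males had 57.1, 50.9, 59.5, 57.8 and 52.9 CPM, against 52.0, 43.4, 52.8, 51.7 and 45.6 CPM in 5 p.m. control males. Of the late males 4 of 5 lay above all of their controls, and 2 of 5 mid males did. The changes were 0.12 ± 0.11 (adjusted p = 0.676) and 0.18 ± 0.10 (adjusted p = 0.259) by edgeR's quasi-likelihood test. Over the 5 stages adcyap1a rose by 0.33 ± 0.06 (adjusted p = 0.00132), a call that held without each male in turn (0.32 to 0.36). It was lost with the share of off-gene reads in the model (0.26, adjusted p = 0.221), where 0 of 18609 genes passed, against 901 without that share.

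Unlike bdnf, diencephalic adcyap1a had nearly level controls, at 47.4 ± 2.7 CPM at 9 a.m., 51.8 ± 5.2 CPM at 1 p.m. and 49.1 ± 4.3 CPM at 5 p.m. (SD, n = 5, 4 and 5). Hours differed by -0.08 to 0.13 on the log2 scale (adjusted p of 0.867 to 0.989, edgeR's quasi-likelihood test). The difference between the genes in this respect was not tested. The morning stages exceeded the afternoon stages by 0.30 ± 0.12 in their change (unadjusted p = 0.0143, adjusted p = 0.360). All 5 stage means of adcyap1a stood above all 3 control means, in the order eggs, early, nest, mid and late, with every gap between neighbours smaller than their pooled SD.

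**Figure D2:**
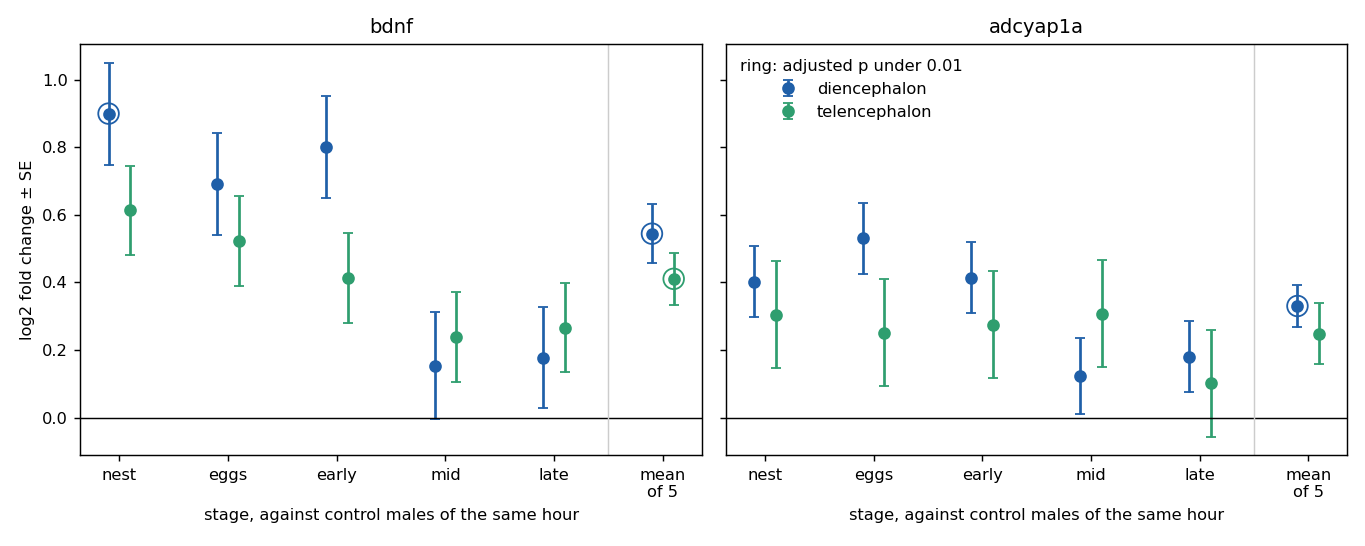
Log2 fold change of bdnf (left) and adcyap1a (right) at each stage against control males of the same hour, and for the mean of the 5 stages, with bars of 1 SE from edgeR's quasi-likelihood fit. Blue is the diencephalon, green the telencephalon, and rings mark an adjusted p under 0.01. The diencephalic bdnf change is 0.90, 0.69 and 0.80 at nest, eggs and early and 0.15 and 0.18 at mid and late.

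In the telencephalon adcyap1a varied more between males than in the diencephalon in every group but nest, and no comparison passed the threshold. In nest males its coefficient of variation was 13.3% in the telencephalon and 17.0% in the diencephalon. Nest males had 82.4, 76.0, 99.99, 85.4 and 104 CPM, against 83.2, 54.8, 71.4, 73.4 and 79.5 CPM in 9 a.m. control males. Eggs males had 97.4, 96.0, 75.3, 52.9 and 109 CPM, and early males 60.2, 85.6, 82.4, 107 and 104 CPM. In each of these stages 3 of 5 males lay above all controls, and eggs male 87 was the lowest telencephalon library of all, as it was the lowest of its group in the diencephalon.

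Mid males had 92.7, 66.8, 84.3, 92.2 and 75.4 CPM of adcyap1a in the telencephalon, against 60.5, 71.5, 81.9, 65.0 and 53.5 CPM in 1 p.m. control males. Late males had 79.3, 56.5, 86.6, 75.4 and 81.2 CPM, against 78.7, 59.8, 67.6, 79.1 and 68.1 CPM in 5 p.m. control males. The ranges overlapped at both hours. The changes from nest to late were 0.30 ± 0.16, 0.25 ± 0.16, 0.28 ± 0.16, 0.31 ± 0.16 and 0.10 ± 0.16 on the log2 scale (adjusted p of 0.372 to 0.904, edgeR's quasi-likelihood test). Their mean was 0.25 ± 0.09 (unadjusted p = 0.00950, adjusted p = 0.123), 0.16 without the 3 control libraries with pituitary markers and 0.31 without the 3 with photoreceptor markers. Control hours differed by -0.12 to 0.09 (adjusted p of 0.924 to 0.998). From the top the means were in the order nest, early, eggs, mid and late, followed by the 9 a.m., 5 p.m. and 1 p.m. controls, from 89.5 ± 11.9 CPM in nest males down to 66.5 ± 10.8 CPM in 1 p.m. control males (SD, n = 5 each), and no gap between neighbours exceeded their pooled SD.

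Both genes were lower in the diencephalon than in the telencephalon in nearly every male. Over the 8 groups the difference was -0.77 ± 0.05 on the log2 scale for bdnf, or 0.587-fold (adjusted p = 9.2e-22), and -0.50 ± 0.05 for adcyap1a, or 0.706-fold (adjusted p = 1.65e-14), by edgeR's quasi-likelihood test. Regions of the brain differ in many genes, and 28.5% of the 18958 genes passed as lower in the diencephalon. By levels scaled within each region, bdnf was lower in the diencephalon in 38 of the 39 males with both libraries and adcyap1a in 37. These counts were not repeated with a scaling common to both regions. Control male 96, whose telencephalon held pituitary markers, was the exception for both genes, with 32.4 CPM of bdnf in the diencephalon and 31.6 CPM in the telencephalon. Its regions differed by only 0.037 for bdnf and 0.036 for adcyap1a on the log2 scale. Eggs male 77 was the other exception for adcyap1a, at 80.0 CPM in the diencephalon and 75.3 CPM in the telencephalon.

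The stage change was not shown to differ between the regions. For the mean of the 5 stages the diencephalic change exceeded the telencephalic one by 0.14 ± 0.12 on the log2 scale for bdnf, with a 95% interval of -0.08 to 0.37 (adjusted p = 0.844), and by 0.09 ± 0.11 for adcyap1a, with an interval of -0.12 to 0.31 (adjusted p = 0.929). The widest gap for bdnf was at early hatching, 0.38 ± 0.20 (unadjusted p = 0.0687). No gene passed in the mean comparison by edgeR's quasi-likelihood test, with 1584 genes at an unadjusted p under 0.05, and DESeq2 called 31, neither member among them. With the male as a replicate block the differences in mean change were 0.15 ± 0.10 (adjusted p = 0.512) and 0.10 ± 0.09 (adjusted p = 0.645).

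Males with much bdnf in the diencephalon also had much in the telencephalon when all groups were pooled, but the relation was not shown among control males alone. Over 39 males log2 CPM in both regions had a Pearson r of 0.64 (permutation p = 2e-05, adjusted over 4 relations 4e-05) and a Spearman rho of 0.66 (adjusted p = 2.67e-05). For adcyap1a r was 0.60 (permutation p = 4e-05, adjusted 5.33e-05) and rho 0.67 (adjusted p = 2.67e-05). Genes in general had lower but positive values: the median r over 18207 genes was 0.43 (quartiles 0.27 and 0.59), and 18.3% of genes exceeded bdnf and 22.9% adcyap1a. Without the 2 males farthest from the diencephalic median r was 0.59 for bdnf and 0.64 for adcyap1a. Among the 14 control males r was 0.02 for both genes (permutation p = 0.940 and 0.939). There rho was 0.22 for bdnf and 0.07 for adcyap1a (permutation p = 0.446 and 0.810). These males include male 96, with 32.4 CPM of bdnf in the diencephalon and 31.6 CPM in the telencephalon, the lowest telencephalon of all. Its telencephalon held pituitary markers, as did those of males 39 and 41. The r without these males was not computed. Among the 25 experimental males it was 0.54 for bdnf (permutation p = 0.00518, adjusted 0.00691) and 0.58 for adcyap1a (permutation p = 0.00244, adjusted 0.00488). Whether r differed between control and experimental males was not tested.

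Pooled agreement includes the shared difference between groups. Once each group's mean was taken out of each region, r was 0.27 for bdnf (permutation within groups, p = 0.117, adjusted 0.117) and 0.49 for adcyap1a (p = 0.00818, adjusted 0.0164). The adcyap1a value fell to 0.31 without the 2 males farthest from the diencephalic median, so it rests in part on those males, and its rho of 0.39 had an adjusted permutation p of 0.0604. By the same measure the median gene had an r of 0.38 over 18207 genes (quartiles 0.20 and 0.56), and 65.7% of genes exceeded bdnf and 33.8% adcyap1a. The share of off-gene reads, a property of the library, had an r of 0.50 between the regions of a male in the same form. For each gene, 24 of 39 males lay on the same side of their group mean in both regions.

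**Figure D3:**
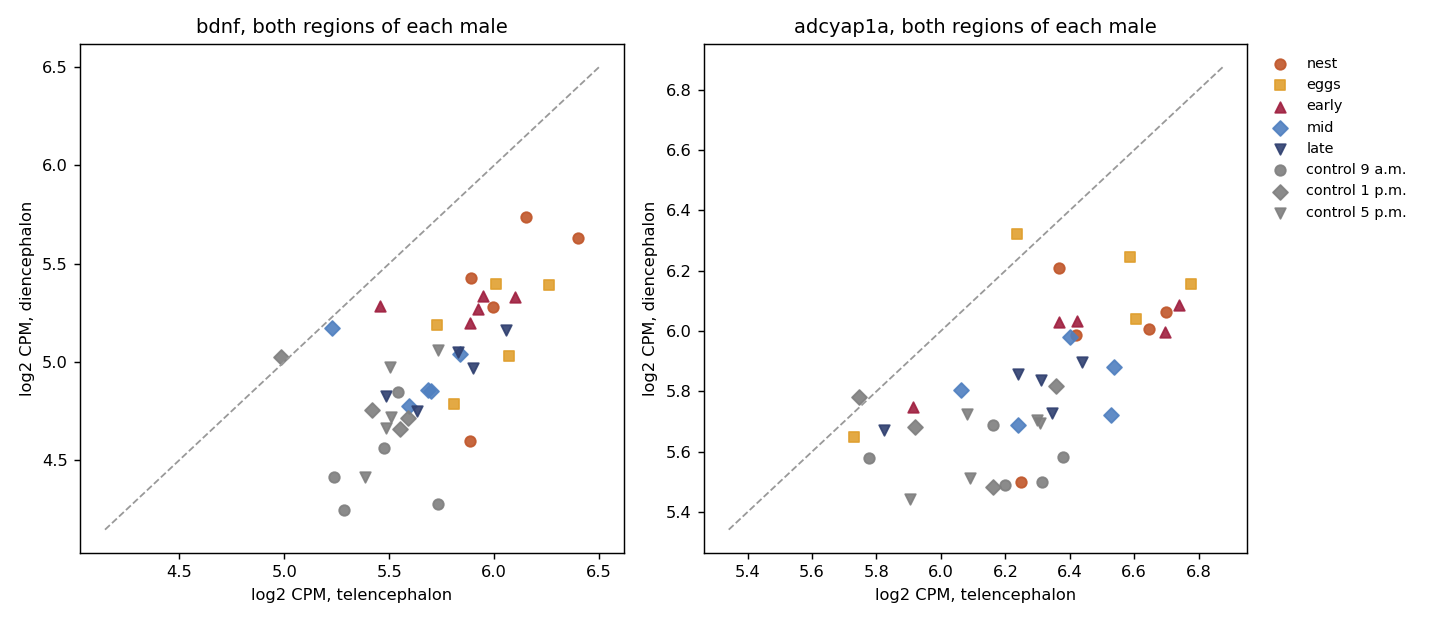
Log2 CPM of bdnf (left) and adcyap1a (right) in the diencephalon (vertical) against the telencephalon (horizontal) of the same 39 males, with symbols for the group. Each region was scaled on its own, and the dashed line marks equal levels on those scales: 38 males for bdnf and 37 for adcyap1a lie below it. The grey control males have r = 0.02 for both genes. They include male 96, whose telencephalon held pituitary markers.

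Within the diencephalon bdnf and adcyap1a followed each other closely from male to male. Over 39 libraries r was 0.85 (permutation p = 1e-05, the smallest that 100000 permutations can give, adjusted 4e-05) and rho 0.88. With group means taken out r was 0.78 (permutation within groups, p = 1e-05, adjusted 4e-05), and it was 0.73 without the 2 males farthest from the median of bdnf. The relation was present in both sets of males: r was 0.72 among 14 control males (permutation p = 0.00458, adjusted 0.0166) and 0.78 among 25 experimental males (permutation p = 2e-05, adjusted 8e-05). Whether those values differ between the sets was not tested.

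Ranked by r with bdnf over the 39 diencephalon libraries, adcyap1a was first of 18608 other genes, and bdnf was first in turn for adcyap1a. The same held for values with the group means taken out, a form chosen after the data were seen. The median gene had an r of -0.01 with bdnf, and the 99th percentile was 0.59. The next 4 genes for bdnf, at r of 0.77 to 0.81, and for adcyap1a, at 0.78 to 0.79, carry no name in the tables used here. Among them, ENSGACG00000017084 and ENSGACG00000019357 were on both lists. All of these values share libraries, depth and scaling, and they are descriptions of one set of samples.

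In the telencephalon the pair was less close. r was 0.55 over 40 libraries (permutation p = 0.00031, adjusted 0.00031) and rho 0.57. With group means taken out r was 0.34 (permutation within groups, p = 0.0559, adjusted 0.0746). Among 15 control males r was 0.65 (permutation p = 0.00831, adjusted 0.0166), but 0.31 without the 2 males farthest from the median of bdnf. Among 25 experimental males it was 0.29 (permutation p = 0.167). bdnf stood at place 10 among the genes most like adcyap1a, and adcyap1a stood at place 677 for bdnf. The gene most like telencephalic bdnf was chn1, which encodes the Rac GTPase-activating protein chimaerin 1, with r of 0.87 in the telencephalon and 0.71 in the diencephalon. The closest genes to telencephalic adcyap1a reached r of 0.58 to 0.64 and have no name in the tables used here.

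**Figure D4:**
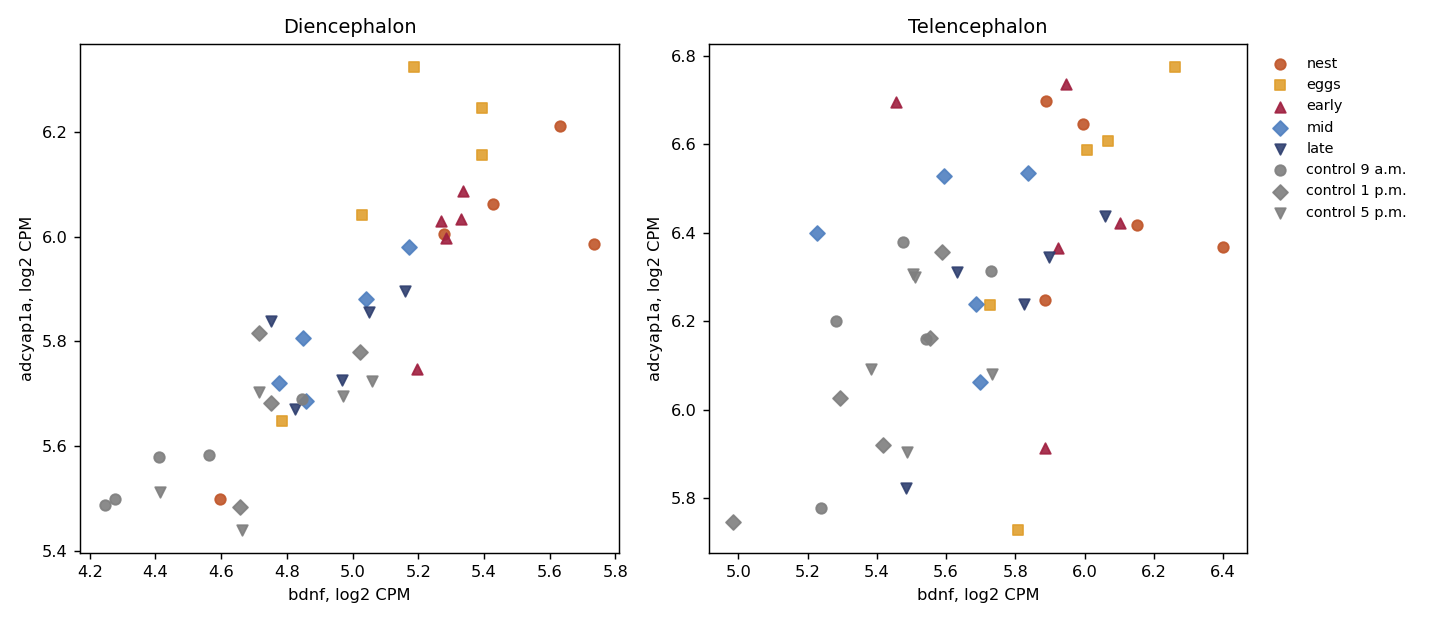
Log2 CPM of adcyap1a (vertical) against bdnf (horizontal) in the 39 diencephalon libraries (left) and the 40 telencephalon libraries (right), each point 1 male with symbols for the group. The points form a narrow band in the diencephalon (r = 0.85) and a loose one in the telencephalon (r = 0.55). Nest male 54, at 24.1 CPM of bdnf and 45.2 CPM of adcyap1a, is the circle among the diencephalic controls.

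Few other genes of the same pathways could be followed, because the names used here came from a shortened table that the study had ordered by its own tests on these samples, and 681 identifiers carried a name. No receptor of either family was matched. kidins220a, whose mammalian counterpart is a scaffold of neurotrophin receptors, was at 82.2, 74.3, 77.9, 74.9 and 69.6 CPM in the diencephalon from nest to late, and 81.0, 75.8 and 75.2 CPM at the 3 control hours. Its mean change was -0.06 ± 0.04 in the diencephalon and -0.04 ± 0.05 in the telencephalon (adjusted p = 0.350 and 0.739, edgeR's quasi-likelihood test). prkar2ab, a regulatory subunit of the cyclic AMP-dependent kinase, had mean changes of 0.58 ± 0.17 and 0.23 ± 0.21 (adjusted p = 0.0207 and 0.608), neither past the threshold.

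Genes of the activity-induced class are transcribed within minutes of neuronal firing in mammals, and 5 of 27 looked for were matched: fos, egr2a, npas4a, NR4A1 (1 of 2) and dusp5. None passed in any stage comparison of either region by edgeR's quasi-likelihood test, beside the backgrounds given above for genes passing as higher. As lower, 318 of 18609 genes passed at late hatching in the diencephalon, and at most 2 in any other stage comparison of either region. Over the 5 stages dusp5, a phosphatase of the ERK kinases, rose in the telencephalon by 0.38 ± 0.08 (adjusted p = 0.00601) and stood at 0.30 ± 0.11 in the diencephalon (adjusted p = 0.0630). The median of the 5 genes was -0.06 in the diencephalon and 0.11 in the telencephalon for the mean of the stages, beside medians over all genes of -0.0037 and -0.0077. At late hatching their diencephalic median was -0.97, beside a median over all genes of -0.02. npas4a stood at -1.08 ± 0.28 (adjusted p = 0.0132), egr2a at -0.97 ± 0.30 (adjusted p = 0.0307), NR4A1 (1 of 2) at -1.14 ± 0.51 (adjusted p = 0.136) and fos at -0.67 ± 0.30 (adjusted p = 0.129). dusp5 had the other sign, 0.16 ± 0.19 (adjusted p = 0.639), as did bdnf in the same libraries at 0.18 ± 0.15. These late values are set against the 5 p.m. controls. In control diencephala at 5 p.m. and 9 a.m., egr2a had means of 9.4 and 5.3 CPM and npas4a 16.8 and 12.4 CPM. NR4A1 (1 of 2) had 2.3 and 1.5 CPM, fos 14.9 and 13.2 CPM and dusp5 32.4 and 31.6 CPM. The SDs at 5 p.m. were 4.9, 8.6, 2.1, 8.3 and 8.5 CPM in the same order. Diencephala of 5 p.m. controls differed from those of 9 a.m. controls by a median of 0.44 over the 5 genes, beside 0.02 over all genes. None of the 5 genes passed in that comparison. Whether low fathers or high controls gave the late median was not tested. The 5 genes are a selected set, since their names came from the table that the study had ordered by its own tests. Their medians therefore cannot be weighed against those of all genes.

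Of the markers of other tissue, 7 of 12 pituitary, 13 of 21 photoreceptor and 4 of 16 glial symbols were matched. No matched marker was at 0 in every library of a region. Only pomca was matched among 19 diencephalic markers and 0 of 17 telencephalic ones, so the dissected regions could not be checked against their own genes. Summed pituitary markers ran between 2.39 and 3753 CPM in diencephala of experimental males and between 3.36 and 4889 CPM in those of controls. With group means taken out, that sum had r of -0.26 with bdnf and -0.24 with adcyap1a over 39 libraries, and the glial sum had r of -0.32 and -0.26. In the telencephalon the pituitary sum had r of -0.29 and -0.17 over 40 libraries. Over the 5 stages 2 of 7 pituitary markers and 10 of 13 tested photoreceptor markers passed as lower in the telencephalon of experimental males by edgeR's quasi-likelihood test, where 0.364% of all genes did. In the diencephalon 0 of 7 and 0 of 14 passed, where 2.75% of all genes passed as lower. Only markers with a name could be matched, and the names came from the table that the study had ordered by its own tests. The matched markers are therefore a selected set, and their shares cannot be weighed against those of all genes. Summed photoreceptor markers had r of 0.06 with bdnf and 0.16 with adcyap1a in the diencephalon in the same form, and 0.16 and 0.03 in the telencephalon. They passed 100 CPM in 3 telencephalon libraries, those of control males 7 and 74 at 9 a.m. (503.9 and 119.6 CPM) and 12 at 1 p.m. (393.1 CPM), while the highest experimental telencephalon, of eggs male 87, was at 99.2 CPM. Their part in the results was not tested, beyond the values given above without 3 libraries each.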

How the data were processed

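RNA was measured in the diencephalon and the telencephalon of 40 males. The authors demultiplexed reads with CASAVA 1.8.2, aligned them to the repeat-masked Ensembl release 75 genome with TopHat2 2.0.8 and counted them per gene with HTSeq 0.6.1, leaving out reads that fell in several genes. The deposited values are these raw counts, 1 file per library. The library kit marks strand, and the methods state program defaults where nothing else is noted and name no strand option for the counting; whether reads of antisense genes were kept apart was not checked here. Lines that name no gene (reads outside genes, ambiguous or not unique) held 48.4% to 57.0% of each file's reads and were left out of library sizes.

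Within each region, a gene was tested if 5 or more libraries reached 0.5 CPM, using edgeR 4.0.16 in R 4.3.3 (TMM, glmQLFit and glmQLFTest, all 8 groups in one fit, Benjamini-Hochberg over all genes tested), with calls at an adjusted p under 0.01: 18609 genes in the diencephalon, 18397 in the telencephalon and 18958 over both regions. Fold changes are log2 values with SE, the fitted change divided by the root of its F statistic, and intervals are normal ones. Correlations used log2 CPM with a prior count of 2 and 100000 two-sided permutations, within groups where group means were taken out. Smallest attainable p is 1e-05. The 2 males left out as farthest from the median were picked on 1 axis alone. That axis was the diencephalic value between regions, and bdnf between the 2 genes. Alternatives were RLE scaling, library totals, no filter, DESeq2 1.42.0, the likelihood ratio test, a covariate, each male left out, and, over both regions, the male as a replicate block. The 2 regions of a male come from the same animal, so the block pairs them: with group means taken out, the median gene had a correlation of 0.38 between the regions of a male.

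Both genes are reported in every library. For likeness, the 5 genes with the highest Pearson r were taken for each gene and region. Genes of the lists were to be named where they passed 0.01 in a stage comparison, and otherwise the neurotrophin and PACAP ligands and receptors that were matched. The other list genes named were chosen after their values were seen. The 2 genes, all lists and the comparison of morning with afternoon stages were chosen with earlier results of these data known. Tests were checked on simulated counts for nest against control in the diencephalon: of 200 genes changed 2-fold 188 were recovered with 1 false call, and of 200 changed 1.5-fold 95 were recovered with 3 false calls. The simulation gave every gene the same spread between males beyond counting error, so these rates do not describe genes that vary more or less than that. Each library of a group came from a different male.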

Additional observations from a re-analysis of the deposited data

Results flagged for a closer look

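Each of the 32 sets of 4 or 5 males (2 genes, 2 regions and 8 groups) was searched for a male far from the others by Dixon's test, and 1 was found, where chance flags about 1 in 20. Early male 13 had 53.7 CPM of adcyap1a in the diencephalon, against 63.8 CPM in the nearest of the other early fathers, a gap of 0.713 of the group's range. In the same male bdnf was also the lowest of the group, at 36.6 CPM, as was telencephalic adcyap1a, at 60.2 CPM. No difference of a stage change between regions, or between morning and afternoon stages, passed an adjusted p of 0.01 in edgeR's quasi-likelihood test for either gene.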

How the results depend on the processing

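Stage comparisons, mean changes, comparisons of morning with afternoon and comparisons of regions changed direction or call as follows. With the share of off-gene reads in the model the diencephalic values were 0.80 for bdnf in nest males (adjusted p = 0.0338), 0.43 for its mean change (0.171) and 0.26 for that of adcyap1a (0.221), all no longer called, and -0.031 for bdnf at late hatching (0.969), a change of sign. Over all genes that model called 2 in nest diencephala, against 10 without the share, and 0 against 901 for the mean change. Fitting only both groups compared gave 0.91 for nest bdnf in the diencephalon (0.116) and called 1 gene. DESeq2 called bdnf in eggs (0.70) and early (0.80) diencephala and in nest telencephala (0.62), and adcyap1a in eggs diencephala (0.54). The likelihood ratio test called the same 3 diencephalic changes (0.69, 0.80 and 0.53). Without the 3 libraries with pituitary markers, an alternative chosen after the data were seen, the mean change of telencephalic bdnf was 0.37 (0.0278), no longer called. Without the 3 with photoreceptor markers, also chosen then, it was 0.47 (0.0114), no longer called, and 4 values near 0 changed sign in the telencephalon: adcyap1a for mid against early change (-0.13), bdnf (0.010) and adcyap1a (0.026) for 1 p.m. against 9 a.m. controls, and adcyap1a for 5 p.m. against 9 a.m. controls (0.10). DESeq2 gave more calls over all genes than edgeR's quasi-likelihood test, for example 75 against 10 for nest diencephala and 1537 against 901 for the mean change there.

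Leaving out 1 male at a time moved the diencephalic change of bdnf to between 0.80 and 1.05 in nest males, 0.63 and 0.81 in eggs males and 0.75 and 0.91 in early males, and that of adcyap1a to between 0.34 and 0.50, 0.48 and 0.63, and 0.38 and 0.47. At mid and late hatching the ranges were 0.10 to 0.25 and 0.10 to 0.28 for bdnf and 0.06 to 0.16 and 0.16 to 0.23 for adcyap1a. The mean change of telencephalic bdnf ran between 0.38 and 0.46. In 8 cases the call changed: nest bdnf lost it in the diencephalon without nest males 33 or 78 or control males 39, 69 or 74, diencephalic adcyap1a gained it in nest males without male 54 and in eggs males without male 87, and the mean change of telencephalic bdnf lost it without control male 39. Calls over all genes moved too. In nest diencephala 2 to 5 genes were called where bdnf lost its call and 42 without male 54, against 10 with all males. Without eggs male 87 the eggs comparison had 4 against 6, and without control male 39 the telencephalic mean change had 47 against 112. The male as a replicate block changed no call; it turned the sign of 1 value near 0, the difference between regions in the bdnf change at late hatching (-0.0082 without and 0.0099 with the block).

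Agreement between regions was not past an adjusted permutation p of 0.05 among control males alone, with r of 0.022 for bdnf and 0.022 for adcyap1a as levels and 0.14 for adcyap1a with group means taken out. The pair of genes in the telencephalon had r of 0.29 among experimental males alone. Among comparisons of successive stages and control hours, values near 0 changed sign. These were late against mid change with off-gene reads in the model (-0.088 for bdnf and -0.0094 for adcyap1a in the diencephalon, -0.025 for bdnf in the telencephalon), the last also with library totals (-0.0056) and without a filter (-0.0022), and diencephalic bdnf at 5 p.m. against 1 p.m. in controls with off-gene reads in the model (0.062). Leaving out 1 male also turned the sign of some. In the diencephalon bdnf ran over -0.057 to 0.12 for late against mid change and -0.10 to 0.069 for 5 p.m. against 1 p.m. controls. In the telencephalon bdnf ran over -0.17 to 0.0032 for eggs against nest, -0.077 to 0.097 for late against mid change and -0.15 to 0.00050 for 1 p.m. against 9 a.m. controls. There adcyap1a ran over -0.16 to 0.088 for eggs against nest, -0.11 to 0.13 for early against eggs, -0.077 to 0.13 for mid against early change and -0.11 to 0.026 for 5 p.m. against 9 a.m. controls. The difference between regions in the bdnf change ran over -0.24 to 0.076 at mid and -0.12 to 0.042 at late hatching. The causes were not tested. With 4 or 5 males a group, the change of a single stage had an SE of 0.10 to 0.16 on the log2 scale within a region, and the mean of the 5 stages one of 0.06 to 0.09.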
